A study of Homo sapiens with 17 samples.

Results

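The genes described here are those of the kinetochore, of the kinesin motors and of the kinases that run mitosis. They were taken by symbol, as every CENP, KIF, BUB1, BUB1B, BUB3, AURKA to AURKC, PLK1 to PLK4 and NEK gene in the table of the 1 h experiment, which gave 78 of 19222 genes. By role they comprised 15 genes of the inner kinetochore and centromere, 4 other CENP genes, 3 checkpoint genes, 3 Aurora kinases, 4 Polo-like kinases, 14 kinesins of the spindle and midzone, 24 other kinesins and 11 NEK kinases.

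All libraries came from wild-type HEK-293T, a human line derived from embryonic kidney. Emetine, a plant alkaloid, stops ribosomes from moving along mRNA. In the 1 h experiment, 3 untreated and 3 emetine-treated libraries (1.8 µM) came from cells given 500 µM 4-thiouridine (s4U) for the same hour, and 1 library of each kind came from cells without s4U. In the 2 h experiment, whose libraries were made with another kit, 3 libraries each were untreated, treated with 1.8 µM emetine or treated with 240 µM emetine, and the labels record 250 µM s4U for all 9. The labels of the 17 libraries do not say whether replicates were separate cultures, so that p-values measure the spread between these libraries only. The comparison asks how blocking elongation changed the level of these mRNAs, and whether the change lay in RNA made during the hour or in RNA that was there before it.

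Kinetochores assemble on centromeric chromatin marked by the histone variant CENP-A. An inner layer of CENP proteins, arranged in small subcomplexes, links this chromatin to outer proteins that bind microtubules. The checkpoint proteins BUB1, BUB1B and BUB3 hold anaphase until every chromosome is attached. Aurora and Polo-like kinases drive the steps of mitosis, and the mitotic kinesins move chromosomes and shape the spindle. Many of these genes are transcribed most strongly in G2 and M phase, and HEK-293T cells divide without synchrony, so that a level is an average over the cycle, in which fewer cells of a phase and less RNA per cell cannot be told apart.

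TL-seq reads s4U that was built into RNA as T-to-C conversions, which mark RNA made during the labeling hour. The fraction new is the estimated share of a gene's reads that came from such RNA. Level is given in CPM, counts scaled by TMM to a common library size of 1000000 reads given to genes, and labeled and unlabeled reads are the level multiplied by the fraction new and by its remainder. Over all members, between 7.25% and 11.2% of reads carried at least 2 conversions in the 6 libraries with s4U. Without s4U this share was 0.0376% (95% Wilson interval 0.0274% to 0.0517%) in untreated cells and 0.0451% (0.0351% to 0.0581%) after emetine. Labeled reads of the members thus stood far above the background measured in the same way.

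The 6 libraries with s4U held between 22246279 and 40018063 reads given to genes, of which the members took between 0.409% and 0.483%. The emetine replicate 3 library stood apart in its deviations from the gene means of its own group. Their SD was 0.299 on the log2 scale, against 0.152 to 0.194 in the others. In emetine replicate 3 the deviations rose with transcript length (Spearman 0.698 over 13380 genes). Those of emetine replicates 1 and 2 fell with it (-0.598 and -0.592). Deviations within a group balance for each gene, so opposite signs follow from the calculation and cannot tell which library carries the trend. Of all reads of a library, an estimated 7.82%, 10.0% and 11.6% were new for untreated replicates 1, 2 and 3, and between 9.15% and 9.98% with emetine. Calls that rest on these libraries are given with and without them, but medians by role are not. The neurofilament genes NEFL and NEFM, which this line is known to express, stood at 114 and 178 CPM in untreated cells. PAX2, LHX1 and SOX11, also listed as HEK-293 markers, were low at 1.8, 2.97 and 0.348 CPM. The hepatocyte genes ALB and APOA1 stood at 0.139 and 0.266 CPM. Of the fibroblast genes, COL1A1 stood at 24.0 CPM, COL3A1 at 2.36 CPM and DCN at 0.143 CPM. The proliferation markers MKI67 and TOP2A stood at 255 and 221 CPM.

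Many genes of this machinery share a short promoter sequence, the cell cycle genes homology region (CHR), which is bound by the MuvB complexes that hold late cell cycle genes silent in G1 and switch them on in G2. Its letters, TTTGAA on either strand (TTCAAA on the other) or the palindrome TTCGAA, were searched in the RefSeq promoter windows of GRCh38.p14, from 250 bases before to 50 bases after each start. Windows were found for 65 of the 78 members. The sequences below are 30 bases around the match in named members, read 5′ to 3′ on the gene's strand, with the CHR letters in capitals. They are shown because the match sits close to the start in genes of 4 different roles.
PLK1, chr16:23678848-23678877, plus strand: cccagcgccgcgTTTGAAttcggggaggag
CENPA, chr2:26786026-26786055, plus strand: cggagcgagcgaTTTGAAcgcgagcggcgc
KIF18B, chr17:44947754-44947783, minus strand: ccgcccggctaaTTTGAAcgcaaggcgccg
KIF4A, chrX:70290058-70290087, plus strand: ctccgggacggaTTTGAAacttggcggtta
KIF22, chr16:29790712-29790741, plus strand: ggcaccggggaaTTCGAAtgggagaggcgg
KIF24, chr9:34329250-34329279, minus strand: acagcgcgggcgTTCGAActggcgcttggc
BUB1, chr2:110678045-110678074, minus strand: ctgcgcggggtaTTCGAAtcggcggcggct
BUB1B, chr15:40161034-40161063, plus strand: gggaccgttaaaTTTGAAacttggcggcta

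Counted from the annotated start as 1, with no position 0, these matches began at -29 in PLK1, -18 in CENPA, 3 in KIF18B, -34 in KIF4A, -27 in KIF22, 2 in KIF24, 2 in BUB1 and -23 in BUB1B. The letters were present in 12 of 15 windows of spindle and midzone kinesins, which belong to 11 of 14 such genes. Among other kinesins they were present in 1 of 26 windows, and among NEK kinases in 0 of 17. Both checkpoint windows, 5 of 14 inner kinetochore windows and 2 of 6 Polo-like kinase windows (PLK1 and PLK4) held them, and none of the 3 Aurora windows, those of AURKB and AURKC, did. Over all 35116 promoter windows the share was 16.4%. A match describes letters in a window and is not a measured binding site.

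**Figure D1:**
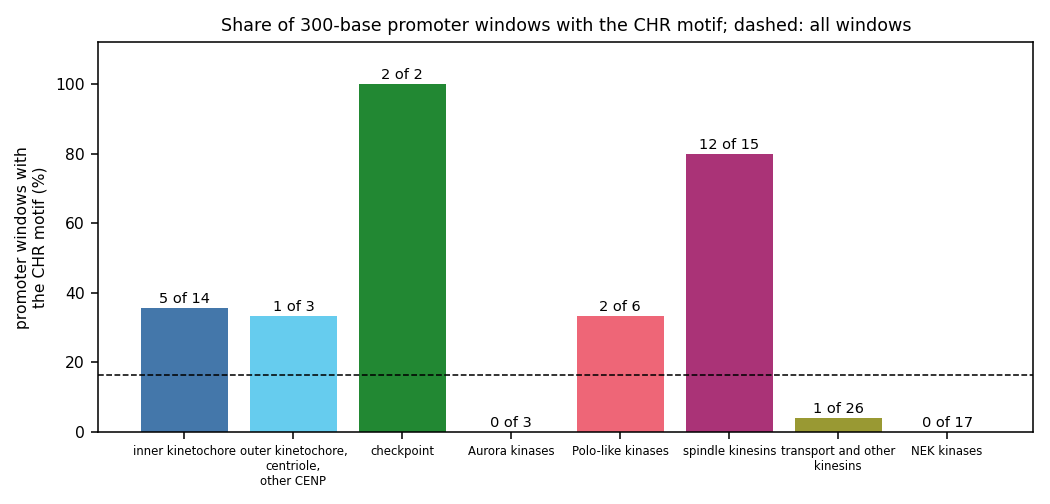
Share of 300-base RefSeq promoter windows that hold the CHR letters on either strand (y axis, %, from 0), by role of the members (x axis), with the number of windows above each bar and the share over all windows as a dashed line at 16.4%. Spindle kinesins, with 12 of 15 windows, stand highest of the large groups, and transport and other kinesins at 3.85%.

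The members differed widely in how fast their mRNA was replaced in untreated cells. Of the 78 members, 65 had at least 100 reads in each of the 6 libraries, the minimum set for a fraction new. The others were AURKC, PLK3, KIF4B, 7 kinesins of transport and 3 NEK kinases (NEK5, NEK10 and NEK11). A half-life in hours is ln(2) over −ln(1 − fraction new), which holds for RNA at steady state that took up s4U throughout the hour. Over the 65 members the median half-life came to 419, 279 and 241 min for the 3 untreated libraries (mean 313 ± 93.7 min, SD, n = 3). Over all 10763 genes with enough reads it was 427, 315 and 261 min (334 ± 84.7 min). In each library the members' median was a little below that of all genes, and the distance was smaller than the spread between the libraries.

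Single members spanned half-lives from 28.9 min to 1380 min. Their order was alike in the 3 libraries, with Spearman coefficients of 0.841 to 0.915 over the 65 genes, although the absolute values moved with the share of new reads in each library. Only at the short end did 1 neighbour stand apart in this order: the range of PLK2 over 3 libraries ended below that of CENPQ, the next gene, whereas each of the other 63 pairs of neighbours had ranges that overlapped. The half-life of the members went with no property of the transcript to a marked degree: Spearman coefficients over the 65 genes were -0.101 with transcript length, 0.277 with the GC content of the last codon position, 0.222 with level per kb and -0.138 with the density of ATTTA in the 3′ UTR. These coefficients describe genes that share libraries, and carry no test.

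**Figure D2:**
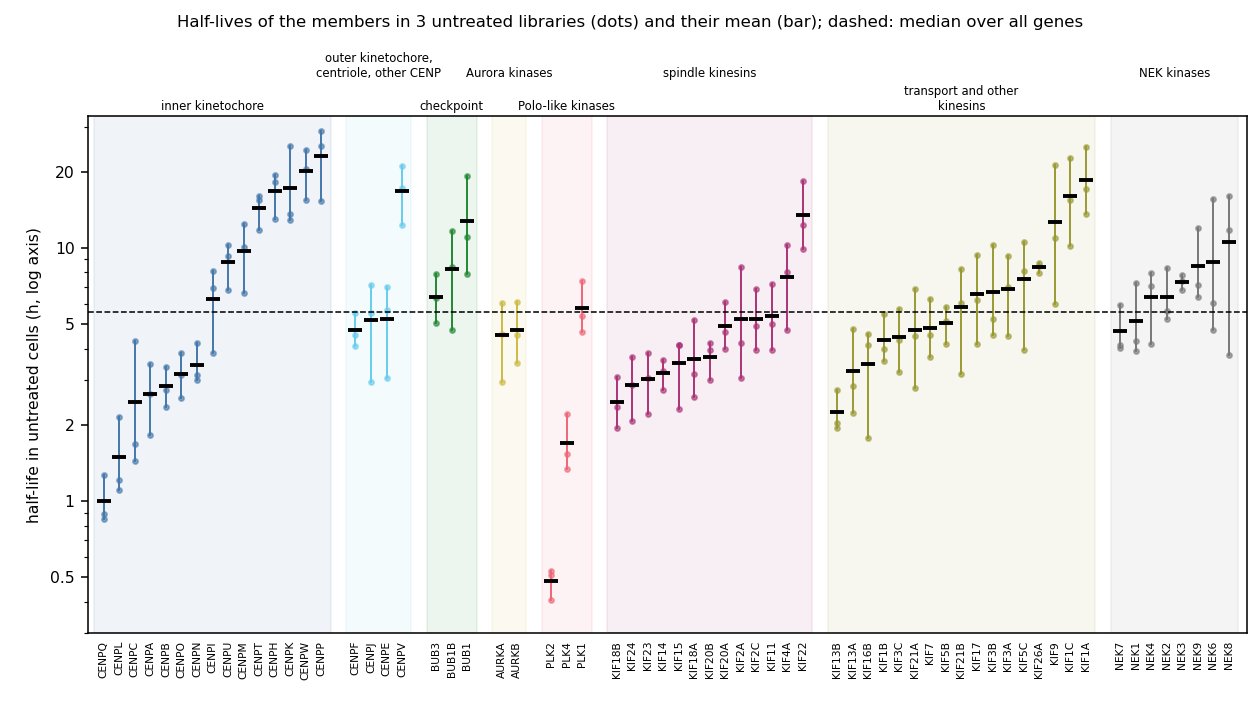
Half-life in untreated cells (y axis, hours, log axis) of the 65 members with enough reads, grouped by role along the x axis. Dots are the 3 untreated libraries, vertical lines join the lowest and highest, black bars are means, and the dashed line is the median over all genes (5.57 h). PLK2 lies lowest at 0.482 h and CENPP highest at 23.1 h.

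Of the 3 Polo-like kinases with enough reads, PLK2 and PLK4 were among the 4 members with the shortest half-lives, with CENPQ and CENPL between them, and PLK1 was not. PLK2 (chr5:58453982-58460139, minus strand), a kinase known as an immediate early gene, had a fraction new of 73.0%, 74.3% and 81.9% in untreated replicates 1 to 3, which gives half-lives of 31.7, 30.6 and 24.3 min (28.9 ± 3.98 min, SD, n = 3). PLK4 (chr4:127880893-127899224, plus strand), which starts the duplication of centrioles, followed with 132, 92.1 and 80.4 min (102 ± 27.1 min). PLK1 (chr16:23677656-23690367, plus strand), which acts from mitotic entry to cytokinesis, had 443, 322 and 278 min (348 ± 85.7 min). In each library PLK1 thus lived more than 10 times as long as PLK2, and near the median of all genes, at the percentiles 50.9 to 52.7. PLK3, a stress-responsive kinase, missed the minimum with 93 reads in untreated replicate 1 and 97 in untreated replicate 3. With a minimum of 50 reads its fraction new was 47.7%, 50.2% and 63.3% in untreated cells, and its half-life 55.1 ± 12 min (SD, n = 3).

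Half-lives of PLK2 and PLK3 may be read beside their 3′ UTRs. The AU-rich nonamer TTATTTATT, a letter pattern known from unstable mRNAs, occurred on the mRNA strand in the 3′ UTR of 12 of the 78 members (15.4%) and of 9.09% of the 16209 genes with an annotated 3′ UTR. PLK2 held it once, at position 499 of its 3′ UTR, and PLK3 2 times, at positions 232 and 250, while PLK1 and PLK4 held none and PLK1 no ATTTA either. The site of PLK2 and the first of PLK3 are shown here with 9 bases on each side (GRCh38, GENCODE 44), with the nonamer in capitals.
PLK2, chr5:58454067-58454093, minus strand: ataaactttTTATTTATTacagcccaa
PLK3, chr1:44805901-44805927, plus strand: ggaccacttTTATTTATTgtcagacac

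Other members with the nonamer had half-lives on both sides of the median of all genes. Members with and without it were not compared. CENPN and KIF5B, with 2 matches each, had 207 ± 40.1 and 303 ± 49.5 min (SD, n = 3). KIF1C, with 4 matches, had a half-life of 963 ± 374 min (SD, n = 3), and BUB3, with 1 match, had 384 ± 85.2 min. CENPQ and CENPL, next after PLK2 in the order of half-lives, held no match.

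Inner kinetochore genes held both extremes of the members apart from PLK2. CENPQ (chr6:49463370-49493107, plus strand), a subunit of the subcomplex that also holds CENP-O, CENP-P and CENP-U, had half-lives of 76.0, 53.3 and 50.8 min (60 ± 13.9 min). CENPL (chr1:173799550-173824883, minus strand), which with CENP-N recognizes the CENP-A nucleosome, had 129, 72.4 and 66.1 min (89.3 ± 34.9 min). The longest half-lives were those of CENPW, a histone fold protein, at 1460, 1230 and 927 min (1210 ± 266 min), and of CENPP at 1730, 1510 and 914 min (1380 ± 422 min). CENPA (chr2:26764289-26801067, plus strand), the centromeric histone, had 209, 159 and 109 min (159 ± 50.1 min). Subunits that sit side by side in 1 subcomplex could thus differ, as the next values show. These subcomplexes were named after their values had been seen.

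Among CENPO, CENPP, CENPQ and CENPU, the mRNA of CENPP lived 22.8, 28.3 and 18.0 times as long as that of CENPQ in untreated replicates 1 to 3. CENPO (191 min) and CENPU (527 min) lay between them. Subunits that are not members were not compared. In CENP-H/I/K/M the ratio of CENPK to CENPI was 3.11, 1.94 and 3.35, and in CENP-L/N that of CENPN to CENPL was 1.96, 2.48 and 2.85. For CENP-T/W the ratio of CENPW to CENPT was 1.58, 1.29 and 1.31. All 4 ratios were above 1 in each of the 3 libraries, but which genes are divided was chosen from their means. Level per kb (CPM per kb of transcript) also varied within the inner kinetochore, from 1.27 ± 0.104 for CENPC to 132 ± 2.60 for CENPW, the highest of this role.

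CENPF, a large protein of the kinetochore fibrous corona, CENPJ, which sets the length of centrioles, and CENPE, a plus-end motor, had half-lives of 283 ± 44.1, 312 ± 127 and 314 ± 120 min (SD, n = 3). CENPV, which is known to act on centromeric heterochromatin, had 1010 ± 260 min and the highest level per kb of these 4, 101 ± 4.18. Its range over the libraries, 736 to 1260 min, lay above those of the other 3 members.

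Checkpoint genes lay above the median half-life of all genes in each library. BUB3, a WD40 protein that brings BUB1 and BUB1B to kinetochores, had half-lives of 472, 380 and 302 min (384 ± 85.2 min). BUB1B, a pseudokinase of the mitotic checkpoint complex, had 700, 505 and 285 min, and BUB1, the checkpoint kinase, had 1150, 659 and 471 min (762 ± 353 min). BUB1 was the longest-lived of the 3 in every library. BUB3 had the highest level per kb, 36.8 ± 1.65, above BUB1 (27.3 ± 1.68) and BUB1B (19.5 ± 0.613). BUB1B overlaps PAK6, so reads of the shared part cannot be assigned with certainty.

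AURKA (chr20:56369389-56392337, minus strand), the kinase of centrosomes and spindle poles, had half-lives of 364, 273 and 177 min (271 ± 93.5 min). AURKB (chr17:8204733-8210600, minus strand), the kinase of the chromosomal passenger complex, had 367, 272 and 211 min (283 ± 78.5 min), and the ranges of the 2 overlapped almost wholly. Per kb, AURKB stood at 204 ± 14.3 CPM per kb and AURKA at 60.2 ± 1.9, so AURKB had the highest level per kb of these kinases, above PLK1 at 169 ± 7.15. AURKC, which acts mainly in meiosis, was at 1.14 ± 0.134 CPM. It closely resembles AURKB, and reads shared by both cannot be told apart.

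Among spindle kinesins the mRNAs were mostly short-lived, with a median of 311, 252 and 180 min over 13 genes, below the median of all genes in each library. KIF18B (chr17:44924709-44947773, minus strand), which acts on astral microtubule ends, was shortest at 186, 141 and 116 min (148 ± 35.1 min), next to KIF24, a microtubule depolymerase of centrioles, at 173 ± 49.4 min. KIF22, a chromokinesin, was longest at 1100, 736 and 594 min (810 ± 261 min), and KIF4A, another chromokinesin, had 460 ± 165 min. KIF22 was also highest per kb, at 97.0 ± 3.18. KIF4B, a near copy of KIF4A without introns, had 1.56 ± 0.536 CPM, and reads that could come from either copy make both counts uncertain.

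Of the other kinesins, KIF13B and KIF13A, which carry vesicles, were shortest, at 135 ± 26.3 and 196 ± 79.2 min. KIF1A, a motor of synaptic vesicle precursors, and KIF1C, a motor of dense core vesicles, were longest at 1110 ± 351 and 963 ± 374 min. KIF1C was also highest per kb, at 26.7 ± 2.23. The median over 17 genes was 414, 272 and 260 min in the 3 libraries.

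Of the NEK kinases, NEK7 and NEK1 had the highest fraction new, 14.1% ± 2.67 and 13.4% ± 3.82 (SD, n = 3), and half-lives of 281 ± 64.2 and 309 ± 111 min. The lowest fraction new was that of NEK9, which activates NEK6 and NEK7, at 8.40% ± 2.43, and of NEK8, a kinase of cilia, at 8.90% ± 6.83. The 3 values of NEK8, 4.22%, 16.7% and 5.74%, spread too widely to place it. NEK2, which separates centrosomes, was highest per kb at 18.5 ± 1.80.

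Emetine for 1 h changed the level of few of these genes. Of the 74 members with more than 100 reads over the 6 libraries, CENPL and CENPJ were raised and none was lowered (edgeR quasi-likelihood test, Benjamini-Hochberg adjusted p under 0.05). These 2 genes are 2.7% of the members tested, and 2.65% of all 13776 genes were raised and 0.0436% lowered, so the members' share was that of the background. At an unadjusted p under 0.05 there were 17 of the 74 members in either direction, and 3014 of all 13776 genes. DESeq2 raised 6 members and lowered 0, and it also raised more of all genes than edgeR did, as counted at the end. The members' median change was 0.14 (log2), against 0.03 over all genes. Above 0 were 48 of 74 members (64.9%) and 54.0% of all genes. Members of the inner kinetochore had a median of -0.10 and spindle kinesins one of 0.23, with 13 of 14 above 0, though no spindle kinesin passed the test. Both medians include emetine replicate 3, whose deviations rose with transcript length. Medians by role were not taken without it or with the length and GC trend removed. Over all tested members, these fits gave medians of 0.03 and -0.01.

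CENPL had 12.5, 13.3 and 12.3 CPM in untreated replicates 1 to 3 and 18.6, 19.0 and 22.2 CPM after emetine. All 3 emetine values lay above all 3 untreated ones (log2 fold change 0.65, SE 0.12, adjusted p = 0.0281, edgeR). Here and below, such separation is a description and not a test, since its share over all genes is not given. CENPJ had 21.6, 21.6 and 17.7 CPM in untreated cells and 29.0, 30.7 and 29.5 CPM after emetine, again without overlap (log2 fold change 0.55, SE 0.11, adjusted p = 0.0381, edgeR). Neither call is firm: each was lost when any 1 library but emetine replicate 3 was left out, with adjusted p of 0.0512 to 0.162 for CENPL and 0.078 to 0.159 for CENPJ, while the changes stayed at 0.57 to 0.70 and 0.46 to 0.60.

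Leaving out emetine replicate 3 raised 7 members: CENPC, CENPJ, CENPL, KIF18B, KIF20B, PLK2 and PLK3. In that fit the members' median change was 0.03, and 1367 of all genes were raised. With the trend on transcript length and GC content removed from each library, 2 members were raised (CENPL and PLK3) and 3 lowered (KIF1C, KIF3B and PLK1). The members' median was then -0.01, and more of all genes were also raised and lowered, as counted at the end. Scaled to spike-in reads, the median over all genes moved to 0.71 and that of the members to 0.83, and none was called. The changes given here are thus relative to the other genes, and those of PLK1, AURKA, AURKB and CENPA (-0.24, -0.05, -0.20 and -0.10) turned positive under spike-in scaling (0.43, 0.62, 0.45 and 0.58), each still below the 0.71 of all genes.

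**Figure D3:**
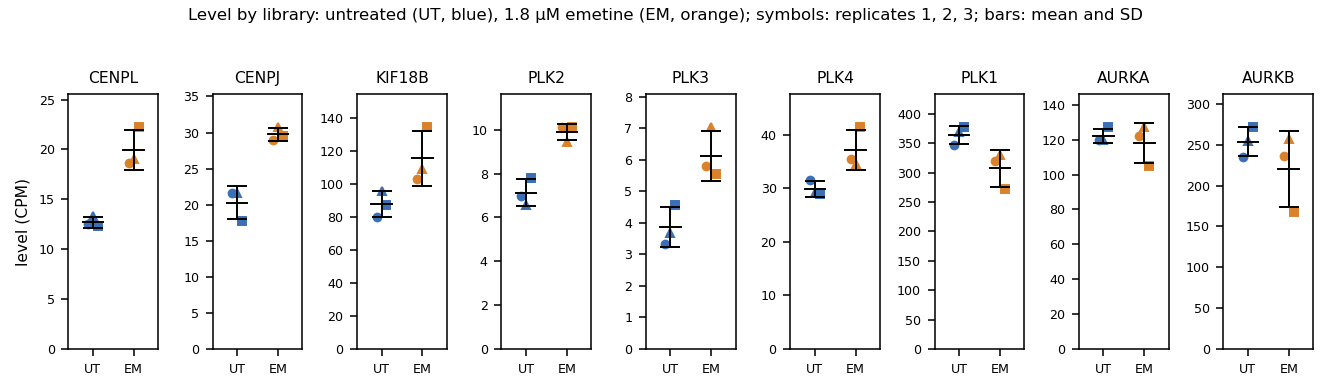
Level (y axes, CPM, each from 0) of 9 members by library in untreated cells (UT, blue) and after 1 h in 1.8 µM emetine (EM, orange), with circles, triangles and squares for replicates 1, 2 and 3 and black bars for mean and SD. CENPL and CENPJ passed the test. The groups of KIF18B, PLK2, PLK3, PLK4 and PLK1 also do not overlap, PLK1 being lower with emetine. Those of AURKA and AURKB overlap. How many of all genes lack overlap is not given, so this is a description only.

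The other kinases gave values on both sides of 0. PLK2 had 6.99, 6.58 and 7.81 CPM untreated and 10.1, 9.45 and 10.1 CPM after emetine (log2 fold change 0.48, SE 0.13, adjusted p = 0.107, edgeR). PLK3 had 3.34, 3.68 and 4.57 CPM untreated and 5.80, 7.02 and 5.55 CPM after emetine (0.68, SE 0.18, adjusted p = 0.0947, edgeR). For both, every emetine value exceeded every untreated one, yet neither passed with all 6 libraries. PLK4 had a change of 0.32 (SE 0.11, adjusted p = 0.162, edgeR) and PLK1 one of -0.24 (SE 0.10, adjusted p = 0.213, edgeR).

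AURKA, AURKB and AURKC had changes in level of -0.05, -0.20 and -0.25 (log2, SE 0.095, 0.15 and 0.28), and BUB1, BUB1B and BUB3 had 0.13, 0.24 and -0.15 (SE 0.10, 0.10 and 0.093). None of these 6 passed, with adjusted p of 0.219 or more in edgeR. AURKB had 236, 257 and 168 CPM after emetine against 235, 255 and 271 CPM untreated, so only emetine replicate 3 lay below the untreated values.

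The fraction new separated emetine from untreated cells in more members than the level did. AURKA, CENPA, CENPL, KIF18B and PLK2 were lower after emetine and none was higher, of 65 tested (limma on the logit, adjusted p under 0.05). That is 7.69% of the members, where 4.83% of all 10763 genes were lower and 0.214% higher. The median change in logit was -0.20 over the members and -0.16 over all genes, and 52 of the 65 members lay below 0, as did 8132 of all genes. At an unadjusted p under 0.05 there were 11 of the 65 members in either direction, and 1779 of all 10763 genes. With each library centered on its median, 8 members were lower (the 5 above with AURKB, KIF20A and PLK1) and 1 was higher (CENPH). More of all genes were lower as well, as counted at the end. A lower fraction new means that labeled RNA was a smaller part of a gene's RNA, which fewer new or more old molecules would both give.

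CENPL had the largest change: untreated libraries had a fraction new of 27.5%, 43.7% and 46.7%, and emetine libraries 18.1%, 19.4% and 21.2% (change in logit -0.96, SE 0.22, adjusted p = 0.00284, limma). PLK2 went from 73.0%, 74.3% and 81.9% to 52.3%, 56.9% and 62.9% (-0.89, SE 0.26, adjusted p = 0.0244, limma). For both genes, 3 of 3 emetine values lay below all untreated values. KIF18B had 20.1%, 25.5% and 30.1% untreated and 13.9%, 14.5% and 11.1% after emetine (-0.79, SE 0.21, adjusted p = 0.0119, limma). CENPA had 18.0%, 23.0% and 31.7% untreated and 14.1%, 13.1% and 12.1% after emetine (-0.73, SE 0.21, adjusted p = 0.0261, limma). AURKA had 10.8%, 14.1% and 21.0% untreated and 7.26%, 8.07% and 8.02% after emetine (-0.73, SE 0.22, adjusted p = 0.0305, limma). In these 3 genes as well the groups did not overlap, and in all 5 the lowest untreated value was that of replicate 1 and the highest that of replicate 3.

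That order of the untreated libraries is also the order of their overall share of new reads, and its part in these calls was not tested beyond the centered fit above. Leaving out untreated replicate 1 gave 14 lower members of 65, but also 2522 lower genes of 10763, a larger share, and leaving out untreated replicate 2, untreated replicate 3 or emetine replicate 1 gave 0. Without emetine replicate 2 or 3 only CENPL was called, with adjusted p of 0.0408 and 0.02. Over the 6 fits that each left out 1 library, the changes ranged from -1.22 to -0.80 for CENPL, -1.0 to -0.73 for PLK2, -0.94 to -0.67 for KIF18B, -0.91 to -0.53 for CENPA and -0.91 to -0.52 for AURKA. With a minimum of 50 reads, which tests more genes, CENPL and KIF18B alone were called. Weighting by reads lost the calls of CENPA and PLK2.

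**Figure D4:**
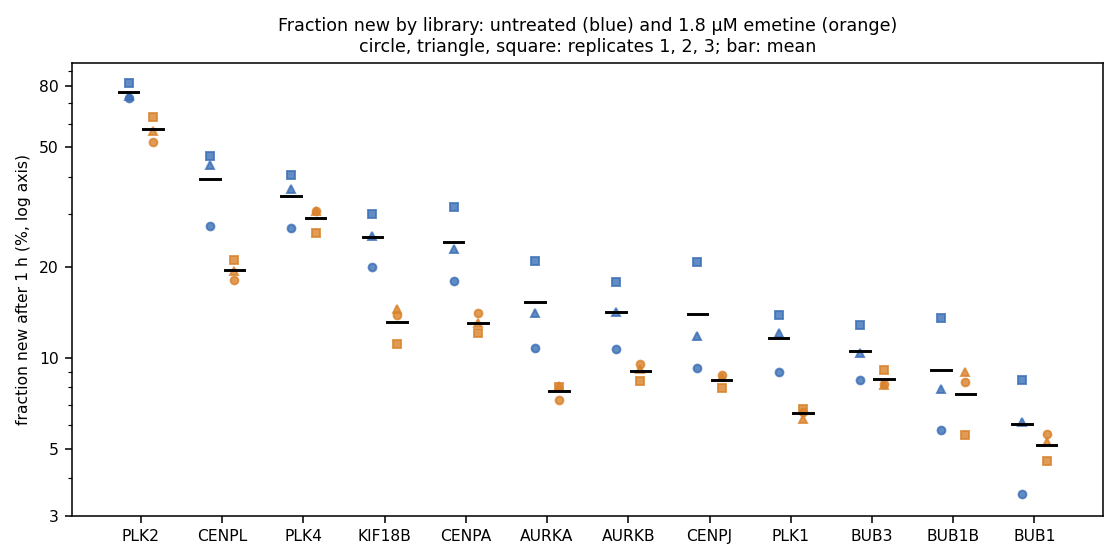
Fraction new after 1 h (y axis, %, log axis) of 12 members by library, in untreated cells (blue) and with 1.8 µM emetine (orange), with circles, triangles and squares for replicates 1, 2 and 3 and black bars for the means. All emetine values lie below all untreated values for PLK2, CENPL, KIF18B, CENPA and AURKA, which passed the test. The same holds for AURKB, CENPJ and PLK1, which did not pass. For PLK4 and the 3 BUB genes the groups overlap. How many of all genes are separated in this way is not given, so separation is a description only.

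Among the other kinases, PLK1 had a fraction new of 8.96%, 12.1% and 13.9% untreated and 6.61%, 6.27% and 6.76% after emetine (change in logit -0.62, SE 0.22, adjusted p = 0.079, limma). AURKB had 10.7%, 14.2% and 17.9% untreated and 9.58%, 9.23% and 8.41% after emetine (-0.49, SE 0.21, adjusted p = 0.196, limma). Neither gene passed, though the groups did not overlap in either. PLK4 went from 27%, 36.3% and 40.4% to 30.8%, 30.8% and 26.1%, and these groups overlapped (-0.24, SE 0.22, adjusted p = 0.675, limma). PLK3, with a minimum of 50 reads, had 36.3%, 47.3% and 58.7% after emetine, within reach of its untreated values (-0.26, SE 0.27, adjusted p = 0.732, limma).

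Checkpoint genes showed no detectable change in fraction new, with -0.11, -0.15 and -0.23 for BUB1, BUB1B and BUB3 (logit, SE 0.23, 0.23 and 0.21). The 8 NEK kinases ranged from -0.35 to 0.24 and the 17 transport kinesins from -0.58 to 0.41, and none of these 28 genes passed.

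The level was then split into labeled and unlabeled reads, and no member was called in both. With 3 and 4 of 65 members called, a lack of overlap says little about them. Labeled reads were lowered for PLK1, AURKA and AURKB and raised for none (limma on log2 of CPM + 0.5). These 3 are 4.62% of the 65 members, where 0.65% of all genes were lowered and 0.26% raised. In either direction, 8 of the 65 members and 1333 of all 10763 genes had an unadjusted p under 0.05. PLK1 had 31.1, 44.7 and 52.4 labeled CPM untreated and 21.1, 20.7 and 18.4 after emetine (log2 fold change -1.04, SE 0.22, adjusted p = 0.00115, limma). AURKA had 13, 16.9 and 26.6 untreated and 8.87, 10.3 and 8.41 after emetine (-0.94, SE 0.24, adjusted p = 0.0164, limma). AURKB had 25.2, 36.2 and 48.4 untreated and 22.6, 23.7 and 14.1 after emetine (-0.83, SE 0.22, adjusted p = 0.0252, limma). In all 3 genes each emetine value lay below each untreated value, and the unlabeled reads changed by -0.17, 0.07 and -0.14 without passing the test.

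CENPA had a change in labeled reads of like size, -0.88 (SE 0.26), that missed the threshold (adjusted p = 0.0617, limma). PLK1 stayed lowered without untreated replicate 1 or 3 or without emetine replicate 2 or 3 (adjusted p of 4.59e-05, 0.0204, 0.0446 and 0.0356, limma), and not without untreated replicate 2 (0.197) or emetine replicate 1 (0.0691). AURKA and AURKB stayed lowered only without untreated replicate 1, where 10 of 65 members and 1764 of 10763 genes were lowered. Centering gave 5 lowered members and 1 raised (KIF11), and more of all genes were lowered as well, as counted at the end. Scaled to spike-in reads, the median change in labeled reads over all genes was 0.41, PLK1, AURKA and AURKB had -0.42, -0.34 and -0.22, and none was called.

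Unlabeled reads were raised for PLK2, CENPL, CENPJ and KIF18B and lowered for none. This is 6.15% of the members, below the 7.37% of all genes that were raised, and 0.0929% of all genes were lowered. At an unadjusted p under 0.05 there were 13 of the 65 members in either direction, and 2819 of all 10763 genes. PLK2 had 1.89, 1.69 and 1.42 unlabeled CPM untreated and 4.83, 4.07 and 3.74 after emetine (log2 fold change 1.12, SE 0.17, adjusted p = 0.00563, limma). CENPL had 9.08, 7.47 and 6.55 untreated and 15.2, 15.3 and 17.5 after emetine (1.02, SE 0.15, adjusted p = 0.00494, limma). In both genes 3 of 3 emetine values lay above every untreated one, while their labeled reads changed by 0.06 and -0.29 without passing. For PLK2 the value added before the log makes the fold an understatement, since its unlabeled level is low, and its values rest on 166 to 377 reads per library.

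CENPJ had 19.6, 19.0 and 14 unlabeled CPM untreated and 26.5, 28 and 27.2 after emetine (0.63, SE 0.15, adjusted p = 0.0318, limma). KIF18B had 64.0, 71.0 and 61.1 untreated and 88.3, 93.2 and 119 after emetine (0.60, SE 0.13, adjusted p = 0.0243, limma), with the highest value in emetine replicate 3. Without that library KIF18B had 0.48 and stayed raised (adjusted p = 0.00109, limma), and 7 of 65 members and 1450 of 10763 genes were raised in all. PLK2 and CENPL stayed raised in each of the 6 fits without 1 library, with changes of 1.03 to 1.2 and 0.92 to 1.14, and in all 5 other settings tried for unlabeled reads. CENPJ was lost without untreated replicate 2 or 3 or emetine replicate 1 or 2 (adjusted p of 0.0896, 0.104, 0.0637 and 0.0591, limma), and KIF18B without untreated replicate 1, 2 or 3 (0.0804, 0.0699 and 0.145). Both calls were also lost with spike-in scaling, and that of KIF18B when each library was centered.

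**Figure D5:**
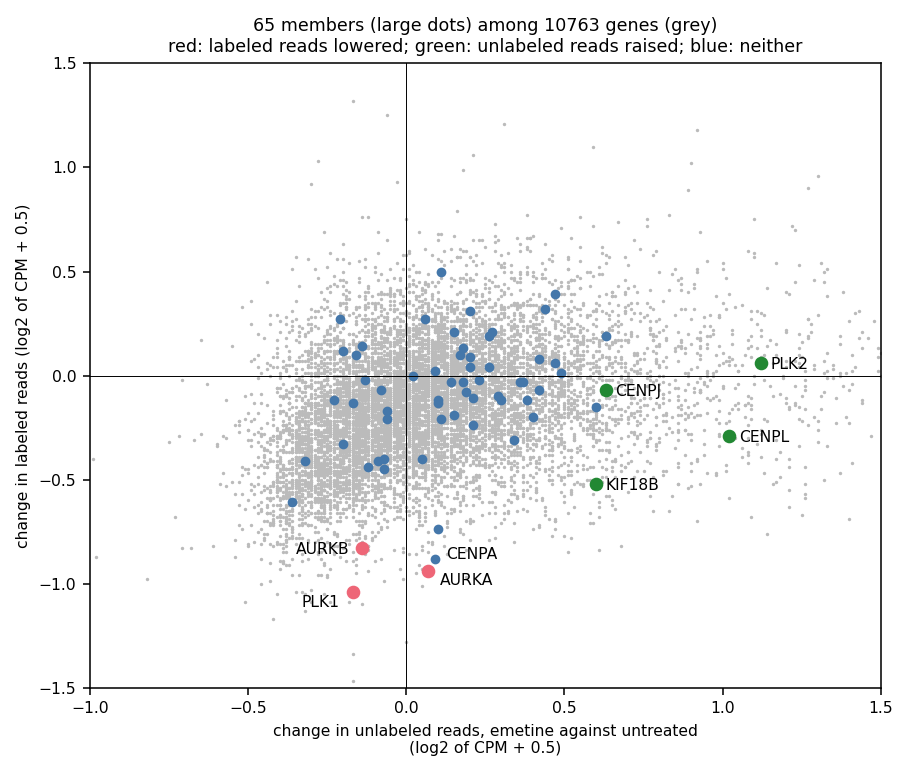
Change in labeled reads (y axis) against change in unlabeled reads (x axis), both as log2 of CPM + 0.5, emetine against untreated, for 65 members (large dots) and all other genes (grey; 85 lie outside the axes). Red dots are members with labeled reads lowered (PLK1, AURKA, AURKB) and green dots members with unlabeled reads raised (PLK2, CENPL, CENPJ, KIF18B); blue dots passed neither test.

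Other genes of the same machinery were read from a list of 64 symbols, of which 61 were in the table and all 61 had enough reads. In level, HJURP, the chaperone that loads CENP-A, MIS12 of the outer kinetochore and CEP152, a centriole scaffold that binds PLK4, were raised, and none was lowered (4.92% of the list, against 2.65% of all genes). The fraction new was lower for HJURP, CDC20, the activator of the anaphase-promoting complex, and MAD2L1BP, which takes the checkpoint complex apart, and higher for none (4.92% of the list, near the 4.83% of all genes). The median change in logit over the 61 genes was -0.25. HJURP had a fraction new of 41.5%, 47.7% and 55.3% untreated and 24.1%, 25.6% and 25.2% after emetine (-1.03, SE 0.221, adjusted p = 0.00143, limma), with 51.7 CPM untreated and 75.7 CPM after emetine on average.

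Labeled reads of this list were lowered for CDC20 (log2 fold change -1.10, adjusted p = 0.000389, limma), BIRC5, or survivin, a partner of AURKB (-0.88, adjusted p = 0.0158), and PTTG1, or securin (-0.89, adjusted p = 0.0437), which is 4.92% of the list, where 0.65% of all genes were lowered. Unlabeled reads were raised for HJURP (1.08), MIS12 (0.88), CEP152 (0.87), MAD2L1BP (0.77), ESPL1, or separase (0.53), and BORA, an activator of AURKA (0.43), which is 9.84% of the list, against 7.37% of all genes. As background, CDC20, PTTG1 and BIRC5 are known, like PLK1, AURKA and AURKB, for mRNA levels that peak in G2 and M phase. Many other genes of this machinery share that trait and were not called. The median change in labeled reads was -0.07 over the members and -0.18 over this list, against -0.14 over all genes. A link to the cell cycle was not tested. Again the genes with lowered labeled reads and those with raised unlabeled reads were not the same, and their number was too small to say more than that.

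For the 2 h experiment, the deposited tables give for each gene the authors' mean of normalized counts over all 9 libraries, the same value in both tables, which holds no contrast. Of the 78 members 64 were listed. CENPF had the highest mean, 11100, followed by KIF5B, the conventional kinesin heavy chain, at 9200. PLK1 stood at 2450, AURKA at 2230, AURKB at 975, PLK4 at 1230 and PLK2 at 233, and BUB1, BUB3 and BUB1B at 3970, 2580 and 2040. CENPL, CENPJ, KIF18B and CENPA had means of 619, 1120, 1080 and 360. Over the 62 members with enough reads at 1 h, the 2 h mean and the untreated level at 1 h had a Spearman coefficient of 0.499. The 2 experiments differ in kit, labeling and time, so these values are set side by side only.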

How the data were processed

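TL-seq libraries of HEK-293T cells were grouped by the treatment and replicate number in their labels. For the 1 h table, the authors trimmed reads with cutadapt, mapped them to hg38 with hisat-3n and used bam2bakR to give whole read counts per library, gene and number of T positions and conversions, which were deposited without normalization. Counting by strand is not given in the sources used here. For the 2 h tables, the deposited signal is the authors' mean of counts divided by spike-in size factors. Their log2 fold changes, standard errors and p-values are the authors' own comparisons and were not used, nor was the table of spike-in size factors.

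Counts of 17.1% to 18.3% of reads, given to no single gene, were left out of tests and library sizes. Summed counts of genes with over 100 reads in the 6 libraries together were compared by edgeR 4.0.16 (R 4.3.3, TMM, quasi-likelihood). The fraction new is the maximum likelihood weight of a 2-component binomial mixture, whose background came from the library without s4U of the same treatment. limma 3.58.1 (trend, robust) compared its logit (bounded at 0.001 and 0.999), and log2(CPM + 0.5) of labeled and of unlabeled reads, where every one of the 6 libraries had 100 or more reads of a gene. Benjamini-Hochberg adjustment ran over all genes tested, and an adjusted p under 0.05 was called. All tests were two-sided, and an exact permutation of 3 against 3 libraries could not go below p = 0.1. bakR, used by the study, was not run. Scripts (Python 3.11.15 with scipy 1.17.1, numpy 2.4.6, matplotlib 3.10.9 and pandas 2.3.3) were tested on simulated data. Alternatives covered scaling, filters, DESeq2 1.42.0, a length and GC trend (mgcv 1.9.3) and the mixture's rates. They also covered minimum reads, weighting by reads, centering, the replicate block and leaving out each library. The centered and spike-in settings for labeled and unlabeled reads were added after the data were seen. No molecular identifiers are described, so intervals cover counting error only.

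All 78 members were matched by symbol to GENCODE 44 on GRCh38, the build named by hg38. Transcript lengths and 3′ UTRs came from GENCODE, and promoter windows from RefSeq. Named with values are every BUB, AURK and PLK gene tested, every called member, and per role the 2 members with the highest and the 2 with the lowest untreated fraction new and the one with the highest level per kb. Genes of the list of other kinetochore and spindle genes are named only where called. Members, lists, motifs and roles were chosen with earlier results of these data known, and other members that are named were chosen after their values were seen.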

Additional observations from a re-analysis of the deposited data

How the results depend on the processing

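The median half-life of the members stayed between 260 and 350 min under every alternative tried. Replicate numbers did not pair the libraries: correlations of same-numbered libraries were 0.091, 0.0375 and -0.0911 for log2 CPM and 0.056, 0.00251 and 0.0221 for logit fraction new, and not every library correlated best with its own number. With the replicate block, 0 members and 0 other genes were raised in level and 2 members (PLK2 and CENPL, not CENPJ and KIF18B) in unlabeled reads, and no other count of called members moved. Level counts: raised members were 0 with spike-in scaling, 5 with all 8 libraries, 6 with DESeq2 and 0 to 7 when 1 library was left out, and 3 were lowered with the length and GC trend removed; raised other genes were 5 with DESeq2 and 0 to 10, and lowered ones 0 to 1, with 1 library out. The members' median change in level was 0.83 with spike-in scaling and -0.01 with the trend removed. Lower in fraction new were 2 members with at least 50 reads, 3 with at least 500 and 8 (and 1 higher) when centered. With 1 library out there were 0 to 14. Weighting by reads gave 6, with AURKB, KIF20A and PLK1 but without PLK2 and CENPA. At the minimum of 500, CENPL and PLK2 had too few reads to be tested. Other genes lower in fraction new numbered 6 when centered and 1 to 19 with 1 library out. The median change in fraction new was -0.07 when centered and -0.35 to -0.06 with 1 library out. Labeled reads were lowered in 5 members (1 raised) when centered, 0 with spike-in scaling and 0 to 10 with 1 library out. Unlabeled reads were raised in 2 members with spike-in scaling and in 2 to 7 with 1 library out. Over all genes, 60 (spike-in scaling) to 1367 (without emetine replicate 3) were raised in level, where 365 were in the report, with 75 under the block, 646 with all 8 libraries, 746 (and 681 lowered) with the trend removed and 820 with DESeq2; 748 when centered, 298 with at least 50 and 227 with at least 500 reads were lower in fraction new, against 520; 250 when centered and 0 with spike-in scaling were lowered in labeled reads, against 70; and 358 under the block and 386 with spike-in scaling were raised in unlabeled reads, against 793. The causes were not tested. Of the values of single called genes under alternatives, 304 kept their side of the threshold, 70 lost a call, 15 gained one, and none reversed a called direction. The 304 include tests in which these genes were not called and stayed so, so they do not count calls that held. With 1 library left out, the unlabeled calls of CENPL and PLK2 held in 6 of 6 fits. All other calls of members held in 1 to 4 of 6. Depth limits PLK3 and the other 12 members without a fraction new.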

Other observations

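The 2 libraries without s4U gave the background for the fraction new and entered the level fit with all 8 libraries, but no other test above. They are 1 library per condition, with no replicate check. In counts scaled to 1000000 reads given to genes, PLK2 had 6.82 untreated and 11.0 with emetine, PLK3 3.64 and 5.91, CENPL 14.8 and 20.9, and CENPJ 24.8 and 34, which are log2 ratios of 0.70, 0.70, 0.50 and 0.45. KIF18B had a log2 ratio of 0.24, AURKA 0.18, PLK4 0.09, AURKB 0.05, PLK1 -0.09 and CENPA -0.18. The median log2 ratio was 0.06 over 74 members and 0.04 over all 13776 genes tested. PLK2 rests on 163 and 346 reads and PLK3 on 87 and 185 reads in these libraries.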
